A study of Homo sapiens with 6 samples.

Results

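ATP-binding cassette (ABC) transporter genes were compared between T24, a cell line from a human bladder carcinoma, and a chemoresistant strain made from it. The members are the protein-coding genes of the deposited table whose symbol begins with ABCA, ABCB, ABCC, ABCD, ABCE, ABCF or ABCG. There were 5 of them among 2462 genes, 3 of subfamily A (ABCA2, ABCA3 and ABCA13) and 2 of subfamily C (ABCC5 and ABCC12). The table holds 3 RNA libraries of T24, the drug-sensitive parent, and 3 of T24DDP, the strain that the paper calls T24-R. T24DDP was derived from T24 in culture by cycles of rising drug exposure and outgrowth of the survivors, with cisplatin and gemcitabine according to the paper, while the series text speaks of a single drug. Neither source says whether T24DDP is a single clone or whether drug was present when RNA was taken. The paper describes its replicates in general as biological and independent, while the labels do not say which cultures the 6 libraries came from, and the p-values below measure the spread between these libraries.

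ABC transporters use the energy of ATP to move a substrate across a membrane, and a few family members do other work in the cell. Members of subfamily A mostly move lipids. ABCA2 lies in late endosomes and lysosomes and acts in sterol and sphingolipid trafficking, and it is best known from myelin-forming cells. ABCA3 loads phospholipid into the lamellar bodies of lung type II cells, from which surfactant is secreted. ABCA13 is the largest protein of the subfamily and is less well characterised. Subfamily C holds the multidrug resistance-associated proteins, which export organic anions, drug conjugates and nucleotides. ABCC5, also named MRP5, exports cyclic nucleotides and nucleoside monophosphate analogues. ABCC12, also named MRP9, is a close relative for which no substrate is firmly established.

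The 3 ABCA genes were higher and both ABCC genes lower in T24DDP, so the 250 bases before their transcription starts are shown, as given by RefSeq on GRCh38.p14. All 5 members had an entry, and of several starts the nearest to the table's 5′ gene end was taken. The lines stand for ABCA2 on the minus strand at chr9:137028923-137029172, ABCA3 on the minus strand at chr16:2340729-2340978, ABCA13 on the plus strand at chr7:48171208-48171457, ABCC5 on the minus strand at chr3:184017885-184018134 and ABCC12 on the minus strand at chr16:48155994-48156243. Each is written 5′ to 3′ on the strand of the gene, with CG dinucleotides in capitals.
ABCA2: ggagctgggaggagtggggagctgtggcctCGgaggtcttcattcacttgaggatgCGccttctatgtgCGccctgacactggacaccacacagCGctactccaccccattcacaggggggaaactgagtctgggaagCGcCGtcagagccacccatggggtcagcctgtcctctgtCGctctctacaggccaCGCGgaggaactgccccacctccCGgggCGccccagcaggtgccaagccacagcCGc
ABCA3: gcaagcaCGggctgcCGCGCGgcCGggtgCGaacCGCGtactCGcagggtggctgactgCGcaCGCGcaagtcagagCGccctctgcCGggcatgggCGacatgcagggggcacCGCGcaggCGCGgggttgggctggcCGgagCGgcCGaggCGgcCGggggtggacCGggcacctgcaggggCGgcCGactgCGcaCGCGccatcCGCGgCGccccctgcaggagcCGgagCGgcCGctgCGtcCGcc
ABCA13: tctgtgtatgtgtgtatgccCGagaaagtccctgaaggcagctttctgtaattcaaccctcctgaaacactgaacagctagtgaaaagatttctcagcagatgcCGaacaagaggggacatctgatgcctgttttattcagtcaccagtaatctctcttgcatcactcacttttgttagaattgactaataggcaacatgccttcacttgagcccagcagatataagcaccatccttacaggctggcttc
ABCC5: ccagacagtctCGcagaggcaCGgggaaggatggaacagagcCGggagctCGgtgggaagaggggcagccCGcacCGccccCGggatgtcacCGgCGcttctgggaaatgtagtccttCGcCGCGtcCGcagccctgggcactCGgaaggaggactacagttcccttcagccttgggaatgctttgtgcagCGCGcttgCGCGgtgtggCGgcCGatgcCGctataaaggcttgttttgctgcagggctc
ABCC12: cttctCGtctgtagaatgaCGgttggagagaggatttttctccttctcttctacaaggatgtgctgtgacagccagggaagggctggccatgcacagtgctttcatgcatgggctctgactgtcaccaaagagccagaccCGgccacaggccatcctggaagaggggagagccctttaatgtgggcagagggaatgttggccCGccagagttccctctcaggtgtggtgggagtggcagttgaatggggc

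The windows of the ABCA genes did not resemble each other in base composition. The window of ABCA3 held 38 CG dinucleotides, more than 96.7% of 35116 RefSeq windows of the same length. The window of ABCA13 held 2, more than 14.7% of them, and that of ABCA2 held 12, near the median of 11. A second RefSeq start of ABCA2, 685 bases inside the gene, had 54 in its window. The windows of ABCC5 and ABCC12 held 21 and 4. Motifs were searched by exact letters on both strands. A TATA box, TATAAA, began 28 bases before the start of ABCC5, and 10.7% of all windows held this motif. A GC box, GGGCGG, was found in the windows of ABCA3 and ABCC5, and 42.6% of all windows held it. The window of the second start of ABCA2 held 6 of them. The core of the antioxidant response element, TGACNNNGC, was found in those of ABCA2 and ABCA3, against 10.9% of all windows, but not in that of the second ABCA2 start. None of the 5 windows shown held the CCAAT box CCAAT (32% of all windows) or the E-box CACGTG (6.34%), nor the DR4 element of liver X receptors (0.0142%) or the sterol response element (0.0342%), each searched as 1 consensus sequence. The window of another RefSeq start of ABCC12, inside the gene, held 2 CCAAT boxes. These matches describe letters and were not tested for function.

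The values are scaled counts, that is, reads counted on a gene divided by 1 size factor per library. The size factors lay between 0.939 and 1.08, and the listed genes held 1170731 to 1411926 reads in each library. Total depth is unknown, since the table holds only genes selected for a difference between the strains. No listed gene had a deposited log2 fold change within the bound of 1. Each member was thus present because it differed in these same 6 libraries, and its difference is a description rather than independent evidence. Replicate 3 of T24DDP stood apart from the rest of its group. Its genes differed from those of replicates 1 and 2 by a median of 0.360 and 0.358 on the log2 scale over 2094 genes with a mean of at least 10, against 0.141 between replicates 1 and 2 and 0.203 to 0.262 within T24. In bulk RNA, fewer cells that express a gene and less RNA per cell cannot be told apart.

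The 3 lipid transporter genes of subfamily A were higher in T24DDP, and no library of T24DDP overlapped T24. Since the table was chosen by this contrast, such separation, also of the ABCC genes below, is no particular trait of the members. Every listed gene of the gene lists below was separated too, and the share over all listed genes was not counted. ABCA2 (ENSG00000107331, minus strand of chromosome 9, 137007227 to 137028922) had scaled counts of 300.2, 383 and 316 in T24 and of 999.9, 1191 and 1121 in T24DDP. The lowest T24DDP library thus lay far above the highest T24 library. The mean was 333 ± 44.1 (SD, n = 3) in T24 and 1104 ± 96.5 (SD, n = 3) in T24DDP, a 3.32-fold difference. On the log2(value + 1) scale the change was 1.73, with a standard error of 0.13 and an adjusted p of 6.06e-06 from limma. It was the smallest change of the ABCA genes and the most precise.

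ABCA3 (ENSG00000167972, minus strand of chromosome 16, 2275881 to 2340746) was close to undetected in T24. Its scaled counts were 5.32, 5.11 and 11.6 in T24 and 66.9, 57.3 and 65.6 in T24DDP. The T24 values rest on 5, 5 and 12 reads, and the first 2 have an exact Poisson 95% interval of 1.62 to 11.7 reads each, which like all such intervals covers counting error only. T24DDP libraries had 62 to 67 reads. The mean rose from 7.35 ± 3.70 to 63.2 ± 5.22 (SD, n = 3 each), 8.61-fold, and the log2 change was 3.03 with a standard error of 0.33 (adjusted p = 3.94e-05, limma). The spread among T24 libraries, 50.3% of their mean, was much wider than that among T24DDP libraries, 8.25%. Of the distinct 50-base stretches of its transcripts, 0.242% also occurred in another gene, the neighbouring pseudogene ABCA17P.

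ABCA13 (ENSG00000179869, plus strand of chromosome 7, 48171458 to 48647496) had scaled counts of 10.6, 5.11 and 8.71 in T24 and of 41.9, 32.3 and 69.5 in T24DDP. The highest value came from replicate 3, which held 71 reads (exact Poisson 95% interval 55.5 to 89.6), against 42 and 35 in replicates 1 and 2. Replicate 3 was 1.87 times the mean of the other two. The mean was 8.15 ± 2.81 in T24 and 47.9 ± 19.3 in T24DDP (SD, n = 3 each), 5.88-fold higher, and the log2 change was 2.40 with a standard error of 0.37 (adjusted p = 0.000287, limma). Without replicate 3 of T24DDP the log2 change of ABCA13 was 2.10. The gene spans 476 kb with 62 exons in its canonical transcript, the most exons of the 5 members.

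**Figure D1:**
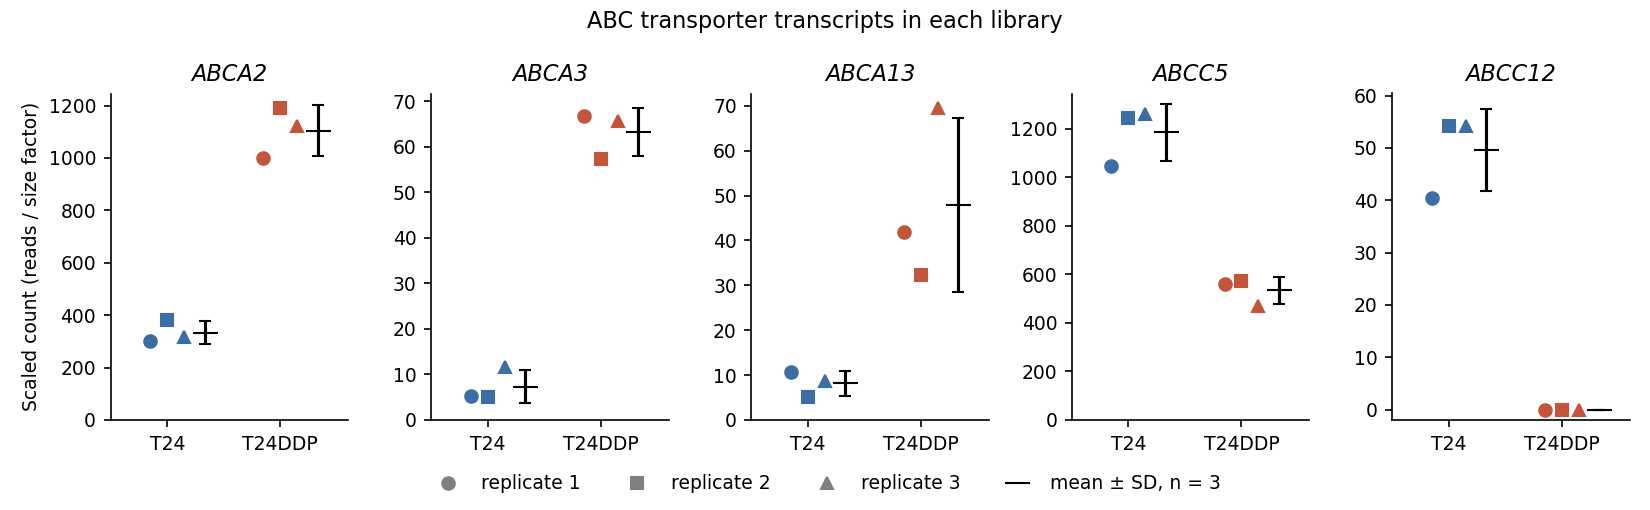
Scaled counts (reads divided by the size factor, linear axis from 0) of the 5 ABC transporter genes in 3 T24 and 3 T24DDP libraries, with a panel per gene and a symbol per replicate; black bars give the mean ± SD (n = 3). The ABCA genes are higher and the ABCC genes lower in every T24DDP library than in any T24 library, and ABCC12 is at 0 in all T24DDP libraries. Genes were listed for a difference in these same libraries.

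Both genes of subfamily C were lower in T24DDP. ABCC5 (ENSG00000114770, minus strand of chromosome 3, 183919934 to 184018015), the exporter of nucleotide analogues, was the most abundant member in T24. Its scaled counts were 1048, 1247 and 1261 in T24 and 559.8, 574 and 469 in T24DDP, so the groups did not overlap. The mean fell from 1186 ± 119 to 534 ± 56.8 (SD, n = 3 each), which is 2.22-fold lower. The log2 change was -1.15, with a standard error of 0.13, a 95% interval of -1.44 to -0.86 and an adjusted p of 4.28e-05 from limma. The interval includes -1, the bound that the table itself imposed, and a limma test against a log2 change of 1 gave an adjusted p of 0.187. Without replicate 3 of T24DDP, its lowest library, the log2 change was -1.06.

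ABCC12 (ENSG00000140798, minus strand of chromosome 16, 48081006 to 48156018) was detected in T24 and had no read in T24DDP. The T24 libraries had 38, 53 and 56 reads, or scaled counts of 40.4, 54.1 and 54.2, with a mean of 49.6 ± 7.92 (SD, n = 3). All 3 T24DDP libraries had 0 reads, and a count of 0 allows up to 3 reads, or 2.77 to 2.99 scaled counts. Against that floor in each library, ABCC12 was at least 17.1-fold lower in T24DDP. Such folds, also those of PDE9A and GSTM1 below, leave out the counting error of the group with reads. The limma adjusted p was 8.72e-07, while the fitted log2 change of -5.65 depends on the pseudocount and is no bound. No 50-base stretch of the ABCC5 or ABCC12 transcripts occurred in another annotated gene.

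All 5 members passed an adjusted p under 0.05 and a log2 change beyond 1 in limma, 3 higher and 2 lower. Of the 2462 listed genes, 98.3% passed this rule, 69.2% higher and 29.2% lower, because the table had been chosen by the same contrast, so nothing about the family can be read from the count of 5. The median log2 change was 1.41 over all listed genes, 2.40 over the ABCA members and -3.40 over the ABCC members, the last of which includes the ABCC12 value that depends on the pseudocount. For each member an exact permutation test of 3 libraries against 3 gave a two-sided p of 0.1, the smallest this design allows. Of the 48 human protein-coding ABC genes, 43 were not listed, among them the multidrug exporters ABCB1, ABCC1, ABCC2 and ABCG2. No gene of subfamilies B, D, E, F or G was listed, with TAP1 and TAP2 counted under B and CFTR under C. A gene outside the table may have been equal, changed by less than the bound or too low to pass, and these cannot be told apart here.

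The size of the ABCA changes depended on how libraries were scaled. Trimmed-mean (TMM) factors, which take most genes as equally expressed, were calculated from the listed genes as an alternative. They moved the median log2 change of the table by -1.32 and the share of higher genes among those called from 70.3% to 44.8%. Under it ABCA2 had a log2 change of 0.38 and no longer passed the bound of 1, ABCA3 had 1.76, ABCA13 had 1.13 and ABCC5 had -2.50. Relative to the median of the listed genes on the deposited scale, ABCA2 lay 0.32 above, ABCA3 1.61 above and ABCA13 0.98 above, while ABCC5 lay at -2.56. No member changed its direction under either scaling, though a downward shift could not reverse the ABCC genes.

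**Figure D2:**
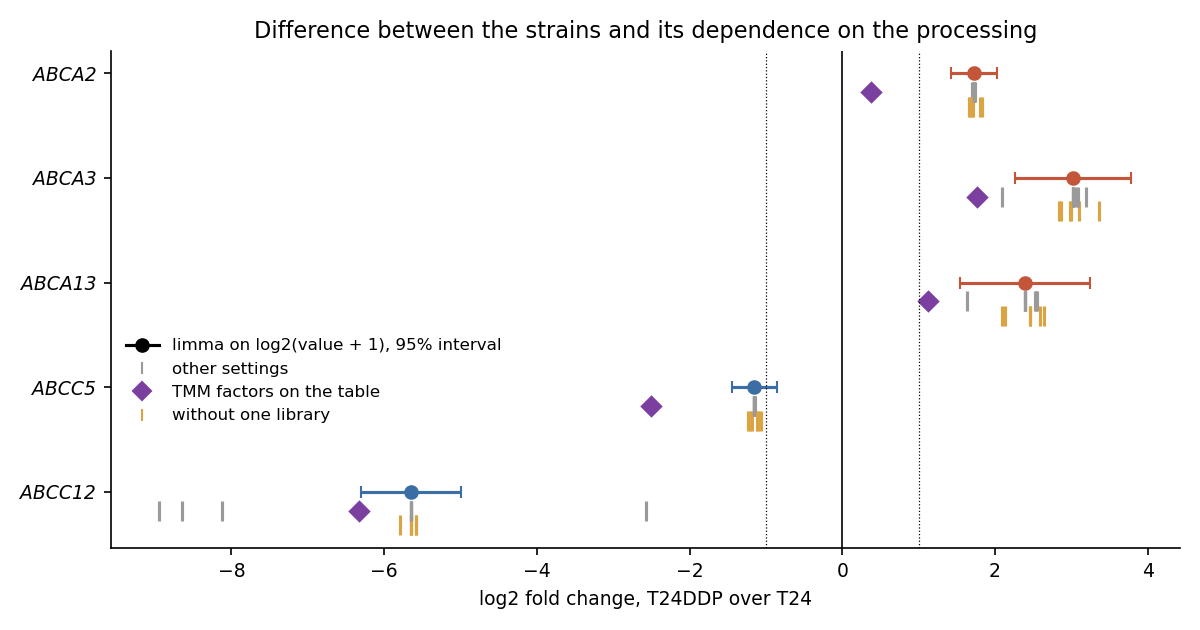
Log2 fold change of T24DDP over T24 for the 5 members, with the limma value on log2(value + 1) and its 95% interval (circles and bars), the value after TMM scaling (diamonds), the values without 1 library (yellow ticks) and those of the other settings (grey ticks); dotted lines mark -1 and 1. ABCA2 moves from 1.73 to 0.38 with TMM factors, and the spread of the ABCC12 ticks comes from its 0 reads in T24DDP.

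Levels of different genes were compared only as scaled counts per kilobase of the gene length in the table. In T24 the order was ABCC5 with 104 ± 10.4, ABCA2 with 28.9 ± 3.83, ABCC12 with 5.70 ± 0.91, ABCA3 with 0.942 ± 0.474 and ABCA13 with 0.428 ± 0.147 (SD, n = 3). In T24DDP it was ABCA2 with 95.9 ± 8.38, ABCC5 with 46.7 ± 4.96, ABCA3 with 8.10 ± 0.67, ABCA13 with 2.51 ± 1.01 and ABCC12 at 0 (SD, n = 3). Neighbours in these orders did not overlap between libraries, but ABCA3 and ABCA13 in T24 rested on 5 to 12 reads per library, and their lowest and highest values, 0.654 and 0.558 per kilobase, lay side by side. Of the 5 members, the leading transcript was thus ABCC5 in the parent and ABCA2 in the resistant strain.

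Ratios within a library do not depend on the size factors or on any other scaling of the library. The level of ABCA2 over that of ABCC5, per kilobase, was 0.284, 0.305 and 0.249 in T24 and 1.77, 2.06 and 2.38 in T24DDP. The order of the pair was therefore reversed in each T24DDP library. On the log2 scale the mean ratio differed by 2.88 between the strains, a 7.39-fold shift, with an SD between libraries of 0.150 in T24 and 0.210 in T24DDP. Both genes were listed for a log2 change beyond 1, in opposite directions, so the selection of the table fixed much of this shift. Under the same selection, the shift against ABCC5 was 4.36 on the log2 scale for ABCA3 and 3.70 for ABCA13. Within subfamily A, ABCA3 over ABCA2 was 0.0262, 0.0197 and 0.0543 in T24 and 0.0987, 0.0710 and 0.0863 in T24DDP, without overlap. ABCA13 over ABCA3 was 0.818, 0.409 and 0.307 in T24 and 0.256, 0.231 and 0.434 in T24DDP, which overlapped through replicate 3 of T24DDP alone. These T24 ratios rest on 5 to 10 reads of ABCA13 and 5 to 12 reads of ABCA3 per library, so no difference can be read from them. Summed per kilobase, the ABCA genes made up 21.7% ± 1.42 of the level of the 5 members in T24 and 69.5% ± 3.08 in T24DDP (SD, n = 3). The direction of this change in share was likewise fixed by the selection.

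**Figure D3:**
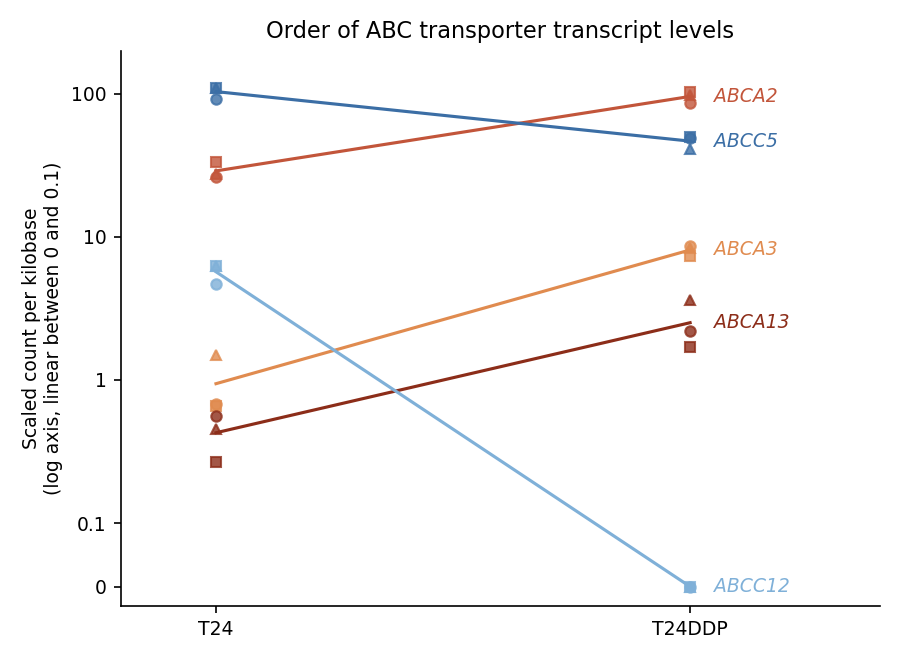
Scaled count per kilobase of the 5 ABC transporter genes in T24 and T24DDP (log axis, linear between 0 and 0.1), with a symbol per replicate and lines joining the group means. The lines of ABCA2 and ABCC5 cross, and ABCC12 goes from 5.70 to 0.

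With only 2 groups, many genes of the table follow the members closely. Pearson's correlation of log2(value + 1) over the 6 libraries was above 0.95 with ABCA2 for 687 of 1709 other protein-coding genes with a mean of at least 10, and with ABCA13 for 299. The 2 genes most like each member were BDKRB2 and PLA2G7 for ABCA2, SEPT3 and NAP1L5 for ABCA3, MRAS and SEMA5A for ABCA13, CPA4 and MBLAC1 for ABCC5, and ELK1 and UGDH for ABCC12, with correlations of 0.994 to 1.00. SEMA5A, a semaphorin, shared the high value of ABCA13 in replicate 3 of T24DDP, with scaled counts of 62.9, 57.3 and 122. CPA4, a carboxypeptidase, shared the low value of ABCC5 there, with 57.9, 57.3 and 44.1. The points share their library, depth and group, so these correlations are descriptions.

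The members lie on 4 chromosomes, and ABCA3 and ABCC12 share chromosome 16 on opposite arms. CLIC3, of the intracellular chloride channel family, lies 10.4 kb from ABCA2 on chromosome 9. It had scaled counts of 0.355 ± 0.615 in T24, under the floor, and 46.3 ± 21.5 in T24DDP (SD, n = 3). NPDC1, a regulator of neural proliferation, lies 10.5 kb away on the other side with a log2 change of 1.35, or -0.000355 with TMM factors. Of 19 listed genes within 5 Mb of ABCA2, 16 had positive log2 changes, against 70.7% of all listed genes, and these counts were not tested. Around ABCA3, 10 of 16 had positive changes, with the scaffold gene CASKIN1 at 79.4 kb (3.66) and AMDHD2, an amino sugar enzyme, at 180 kb (-1.15, or -0.93 without replicate 3 of T24DDP, which ended its call). Around ABCA13, 4 of 8 were positive, SUN3 at 142 kb among them (2.04, or 0.71 with TMM factors, which ended its call), and the next listed gene on the other side, ZNF479, was 8.47 Mb away and had no reads in T24. Around ABCC5, 6 of 14 were positive. Of its neighbours, EIF2B5, a translation initiation factor subunit, lay at 117 kb with -1.13 and MCF2L2 at 491 kb with 1.43. With TMM factors MCF2L2 had 0.12 and its call was lost, and neither gene kept its call in the test against a log2 change of 1. No listed gene lay within 5 Mb of ABCC12, and the nearest were IRX3 at 6.13 Mb, higher in T24DDP but at 0.036 and not called with TMM factors, and LINC02167 at 12.3 Mb (-4.93). No base of the annotated exons of the 5 members overlapped an exon of another gene on either strand.

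Of 32 genes of sterol and lipid homeostasis, the pathway nearest to the ABCA genes, 8 were listed, 3 called higher and 5 lower. The counts of this and the following lists stand against 69.2% of the table called higher and 29.2% lower. TMM factors moved log2 changes downward, so a lower call kept under them is no check. In the test against a log2 change of 1 the sterol and lipid list kept 2 higher and 4 lower, and with TMM factors 2 higher and 5 lower. APOE, the carrier protein of cellular cholesterol efflux, had a log2 change of 3.35 with a standard error of 0.55, or 2.14 with TMM factors. It had 2 to 11 reads per library in T24 and 36 to 82 in T24DDP. MYLIP, a ligase that degrades the LDL receptor, had 2.38 (1.11 with TMM factors), with 6, 12 and 9 reads in T24. CYP27A1, which makes an oxysterol, had 1.61 (0.37 with TMM factors), with 3, 11 and 8 reads in T24 and 19, 34 and 19 in T24DDP. Its call was lost with TMM factors and in the test against a log2 change of 1. Among the lower genes were INSIG1, the sterol sensor partner (-1.56), and LSS, a cholesterol synthesis enzyme (-1.47). Named after their values were seen, and lower too, were the fatty acid synthase gene FASN (-1.41) and FDPS of the mevalonate pathway (-1.09). The median log2 change of the 8 was -1.25, against 1.41 in the table.

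Of 24 genes of the lysosome and lamellar body, where ABCA2 and ABCA3 reside, 5 were listed, 2 higher and 3 lower. Of these the test against a log2 change of 1 left 1 and 1, and TMM factors left 1 and 3. LAMP3, a lysosomal membrane protein also found in lamellar bodies, rose from 17.7 ± 5.98 to 116 ± 12.7 scaled counts (SD, n = 3). Its log2 change was 2.68, or 1.37 with TMM factors. TFEB, a transcription factor of lysosomal genes, had 1.07, but -0.27 with TMM factors. The protease genes CTSH (-1.68) and CTSL (-1.29) were lower, with CTSL at -0.97 without replicate 3 of T24DDP, below the bound. The surfactant protein genes that accompany ABCA3 in lung were not listed.

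Of 42 genes that make or break down cyclic nucleotides, which ABCC5 can export, 5 were listed, 2 higher and 3 lower. Of these the test against a log2 change of 1 left 2 and 1, and TMM factors left 1 and 3. PDE9A, a phosphodiesterase of cyclic GMP, had 0 reads in T24 and 27 to 34 in T24DDP, at least 9.47-fold higher against a floor of 3 reads per library. GUCY1A2, a subunit of soluble guanylate cyclase, had a log2 change of 2.07, or 0.84 with TMM factors, with 21, 21 and 55 reads in T24DDP. Without replicate 3 of T24DDP its log2 change was 1.62. The receptor guanylate cyclases NPR1 and NPR2 were lower (-2.29 and -1.65, with NPR2 at -1.27 without replicate 3 of T24DDP), as was the cyclic AMP phosphodiesterase PDE4A (-1.14, or -0.93 without replicate 3 of T24DDP, which ended its call).

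Of 19 genes of gemcitabine handling, the nucleoside transporter SLC29A2 (1.52) and the mitochondrial kinase TK2 (1.32) were listed and called higher, but TMM factors gave log2 changes of 0.19 and -0.024, and neither was called in the test against a log2 change of 1. SLC29A2 had 163, 161 and 62 reads in T24DDP, and its log2 change was 1.97 without replicate 3. Of 31 genes of platinum handling, 5 were listed and all were lower, of which the test against a log2 change of 1 left GSTM1 and GSTM3. With TMM factors all 5 stayed called lower, which is no check, since these factors moved the median log2 change of the table by -1.32. GCLM, a subunit of the enzyme that starts glutathione synthesis, fell by 1.16 on the log2 scale. GSTM3 and GSTM4 of the glutathione transferases had -1.84 and -1.54. GSTM1 of the same family, with 14 to 24 reads in T24 and 0 in T24DDP, fell at least 6.51-fold against a floor of 3 reads per library. Without replicate 3 of T24DDP, GSTM4 had -1.24. These paralogs are similar in sequence, so reads may be shared among them. The cation transporter SLC22A3 had -1.24, or -0.99 without replicate 3 of T24DDP, which ended its call. Of 24 transcription factors known to act on ABC genes, PPARG was lower (-1.69) and NR1H3, the liver X receptor alpha gene, had 1.03. The call of NR1H3 was lost without replicate 3 of T24 (0.95) or of T24DDP (0.98), and TMM factors gave it -0.32.

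**Figure D4:**
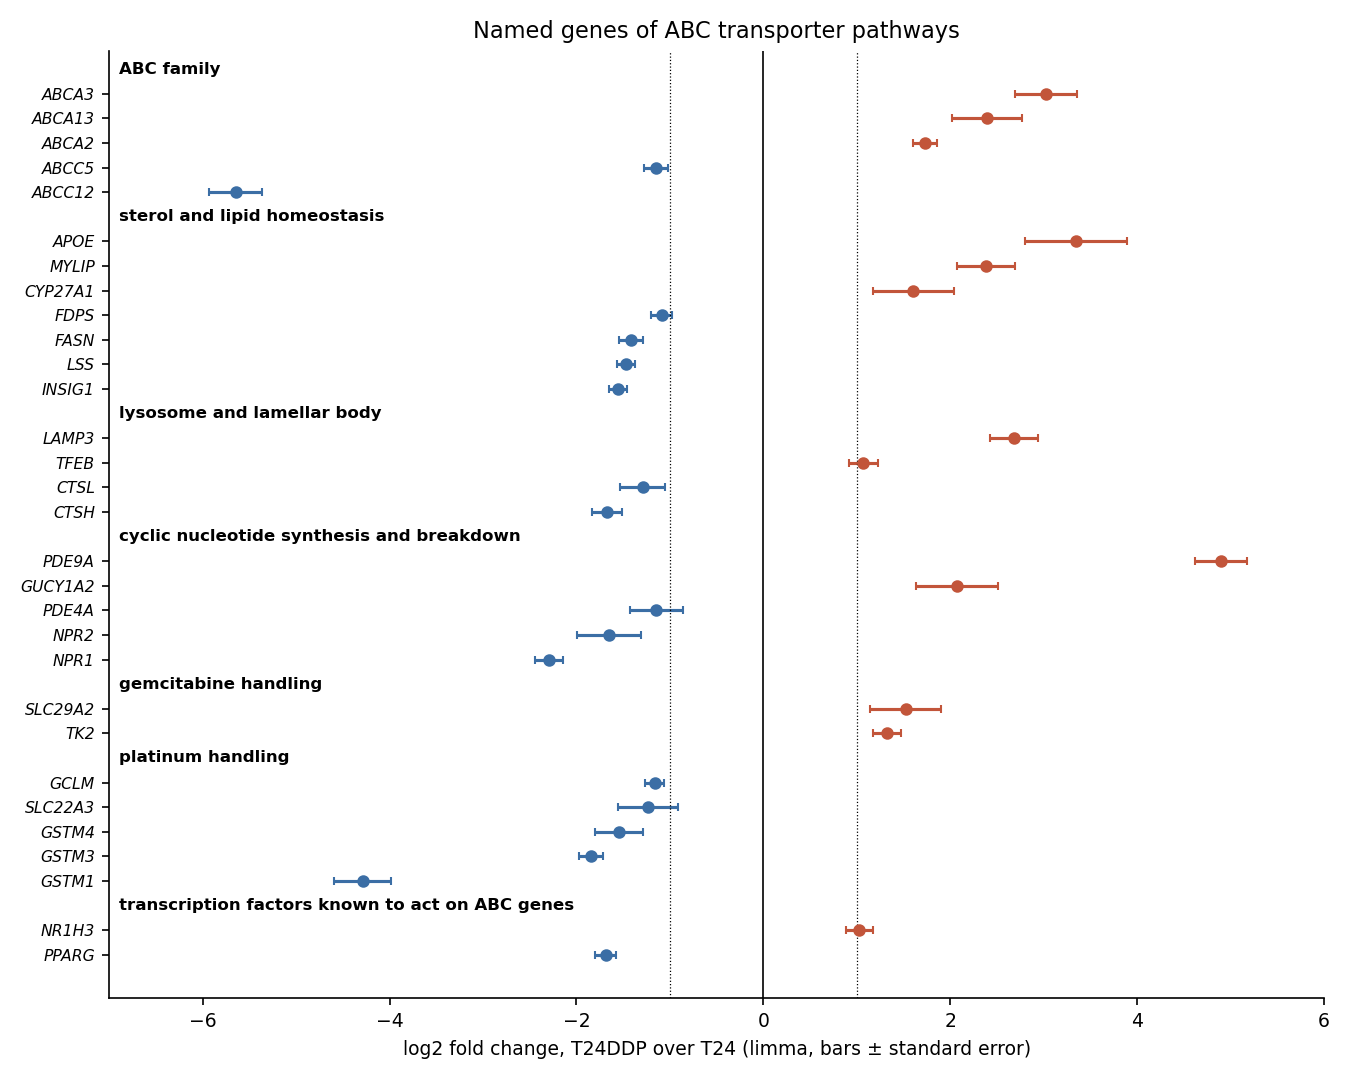
Log2 fold change of T24DDP over T24 (limma on log2(value + 1), bars ± standard error, n = 3 libraries per strain) of the named genes of 7 gene lists, the ABC family among them; red marks higher and blue lower, and dotted lines mark -1 and 1. The platinum handling genes all lie below -1 on the deposited scale, the other lists except that of gemcitabine handling hold genes in both directions, and the values of TK2, TFEB and NR1H3 turn negative with TMM factors.

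Markers of cell identity also moved between the strains. Of 18 urothelial and epithelial markers, 2 were listed, KRT19, with 153 to 191 reads in T24 and 0 to 1 in T24DDP, and GATA3, with 0 to 3 and 36 to 52. Their summed scaled count was 148 to 205 in T24 and 35.9 to 48.0 in T24DDP. Of 20 markers of blood, endothelial, fibroblast and muscle cells, 3 were listed, COL1A1 (2.49), PECAM1 (3.69) and ACTA2 (1.29, or -0.035 with TMM factors), with a summed scaled count of 58.2 to 84.2 in T24 and 255 to 320 in T24DDP. PECAM1 was at 0 in 1 T24 library. The labelled cell type could not be checked further, since markers with like levels in the strains are not in a table of differing genes. The part of these markers in the differences of the ABC genes was not tested.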

How the data were processed

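RNA sequencing of T24 (n = 3) and T24DDP (n = 3) was analysed from the deposited table. According to the methods, the authors trimmed reads with fastp, aligned them to GRCh38 with HISAT2, counted them on genes with featureCounts and tested the strains with DESeq2. Each deposited value is a signal, namely a gene's read count after division by the size factor of its library, by the authors. The labels' processing notes name a mouse build and their protocol names retinas, but the gene identifiers and coordinates are human so the paper was followed. The annotation version and strand setting are not given in the sources used here. The table also holds group means and the authors' DESeq2 columns (log2 fold change, p-value, its adjusted form), which were not used for results, and gene lengths in bases, which were.

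All values (100%, within 0.001) were whole multiples of 1 step per library, so reads and size factors were recovered. Since the values are normalized, limma was the main tool. All 2462 genes were fitted as log2(value + 1) with limma 3.58.1 under R 4.3.3 (lmFit, eBayes with trend), with Benjamini-Hochberg adjustment, and genes were called at an adjusted p under 0.05 and a log2 change beyond 1. Genes were named if they were members, the nearest listed gene on either side of a member, among the 2 best correlated with it, or in a gene list. From lists with over 6 listed genes, the 3 highest and the 3 lowest with a mean of at least 10 were named. The lists' counts and medians cover 2 genes whose own values are not reported here. The members and lists were chosen with earlier results of these data known. Alternatives were TMM factors, other pseudocounts, a filter, no trend, treat, a replicate block, leaving out each library, and edgeR 4.0.16 and DESeq2 1.42.0 on recovered reads. The scripts were tested on simulated data. Gene models and shared 50-base stretches are from GENCODE version 44. Coordinates are those of the table. Promoter windows are from RefSeq. Python 3.11.15 and scipy 1.17.1 were used.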

Additional observations from a re-analysis of the deposited data

How the results depend on the processing

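Of 75 log2 changes of members recomputed under 15 alternatives for each gene, 73 kept their direction and their side of the threshold and none was reversed. The exceptions were ABCA2 with TMM factors (0.38, limma adjusted p = 0.0352) and ABCC5 in the test against a log2 change of 1 (adjusted p = 0.187), which left 1 member called lower. Both alternatives left 4 members called and the others left 5. Over the alternatives the log2 change ranged from 0.38 to 1.84 for ABCA2, from 1.76 to 3.37 for ABCA3, from 1.13 to 2.64 for ABCA13, from -2.50 to -1.06 for ABCC5 and from -8.94 to -2.57 for ABCC12, whose 0 reads make it follow the pseudocount. Leaving out each library in turn gave a log2 shift of ABCA2 over ABCC5 between 2.78 and 2.99, much of which the selection of the table had fixed. edgeR called 1740 genes higher and 720 lower and DESeq2 1740 and 721, against 1703 and 718 in limma, while TMM factors gave 585 and 721, a log2(value + 10) scale 1208 and 563 and the test against a log2 change of 1 gave 1034 and 264. Of 628 log2 changes of the other genes of the lists and of the neighbours, 35 lost the call and 5 were reversed. The reversals all came with TMM factors, namely TK2 (-0.024), NR1H3 (-0.32), TFEB (-0.27), ACTA2 (-0.035) and NPDC1 (-0.000355). The genes named only for their correlation with a member were not recomputed. TMM takes most genes as equal, which a table of differing genes does not offer.

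Libraries with the same replicate number deviated together weakly (correlations of 0.124, 0.0244 and 0.181 over 2094 genes), and the labels tie the numbers to nothing shared, so the libraries were not taken as paired. Each T24 library correlated best with its own number, but T24DDP replicate 2 correlated better with T24 replicate 1 (0.109) than with T24 replicate 2. With the replicate number as a block, 5 members were called, 3 higher and 2 lower, and 1704 genes higher and 719 lower in the table. Among the members, depth limits ABCA3, ABCA13 and ABCC12, with at most 12 reads per library in T24 for the first pair and 0 in T24DDP for ABCC12.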
